A study of Bos taurus with 3 samples.

Results

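The 7 genes described here encode proteins that move short-chain fatty acids, protons and sodium across the rumen epithelium. They were chosen by name (SLC16A1, SLC16A3, BSG, SLC9A2, SLC9A3, ATP1B1 and ATP1B3) and are 7 of the 27270 genes in the count matrices, with 1 row each. The rule names the genes and uses no measured value, but it was set with earlier results of these data known. Rumen tissue of Holstein calves, labelled newborn and taken 1 day after birth, was stripped of its muscle layers, dissociated with enzymes and sequenced as 1 droplet library per calf, so the calf is the replicate (n = 3). The calves form a single group with no treatment, and the adult libraries of the study were not analysed here. A level is the number of UMIs (unique molecular identifiers, 1 per captured transcript) of a gene per 10000 UMIs, after the cells of a class were added up in each calf. Barcodes with 500 to 4000 detected genes were used. The libraries read transcript ends and no transcript length enters the unit, so levels are compared for 1 gene across cells, not between genes.

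In the adult rumen, microbes ferment plant material to short-chain fatty acids, which the stratified epithelium absorbs, uses in part as fuel and passes on to the blood. SLC16A1 (MCT1) and SLC16A3 (MCT4) are proton-coupled monocarboxylate transporters, and BSG (basigin) is the membrane glycoprotein that escorts both to the cell surface. SLC9A2 and SLC9A3 (the exchangers NHE2 and NHE3) trade intracellular protons for sodium, and the sodium is pumped out by the Na+/K+-ATPase, of which ATP1B1 and ATP1B3 are beta subunits.

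The 3 libraries held 7529, 12043 and 11656 barcodes with 82263092, 89803289 and 106145091 UMIs, and 4695, 9746 and 9601 cells were kept. They were divided into epithelial cells (4588, 8784 and 7819 in calves 1, 2 and 3), fibroblasts (23, 341 and 409), endothelial cells (74, 544 and 679) and immune cells (10, 76 and 693), and 2 cells stayed unnamed. The classes were named from marker lists, and not every listed gene kept to its class. The fibroblast class includes mural cells and myofibroblasts. Of its cells, 314 formed a cluster with ACTA2, TPM2 and MYH11 among its leading genes. PTPRC, the leukocyte antigen, was at 4.00 UMIs per 10000 in immune and 0.000879 in epithelial cells, and KRT15, a basal keratin, was at 110.1 in epithelial cells. CDH1, of the epithelial list, stood in immune cells at 0%, 68.6% and 130.3% of the epithelial level in calves 1, 2 and 3. SPARC, of the fibroblast list, was at 50.5 in fibroblasts and 27.7 in endothelial cells. Calf 1 gave few non-epithelial cells, and its 23 fibroblasts carried KRT5, KRT14 and KRT15 at 56.7% to 87.9% of the level in its epithelial cells, against 6.01% to 9.28% in calves 2 and 3. The part of this epithelial RNA in the values of the calf 1 fibroblasts was not tested. The same 3 keratins stood at 2.78% to 5.92% of the epithelial level in endothelial cells and at 3.49% to 13.7% in immune cells, which is the background against which low levels outside the epithelium are set below. Between pairs of calves, 10, 16 and 26 cell barcodes were shared.

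Of the 7 genes, 5 had their highest mean level in epithelial cells (SLC16A1, BSG, SLC9A2, SLC9A3 and ATP1B3), while SLC16A3 and ATP1B1 had theirs in immune cells. The ranges over calves of the epithelial cells and the next class did not overlap for BSG, SLC9A2, SLC9A3 and ATP1B3. They overlapped for SLC16A1, whose next class was the fibroblasts, and for ATP1B1, whose immune and epithelial ranges met. For SLC16A3 the immune range lay above that of every other class. Further down the order, every pair of neighbouring classes overlapped for each of the 7 genes. The shares of all genes highest in epithelial cells, or without overlap, were not counted. These numbers therefore do not set the 7 genes apart from other genes. Counts summed per calf and class were tested by the quasi-likelihood method of edgeR, with the calf as a block and p-values adjusted by Benjamini-Hochberg over all genes tested. The log2 differences of edgeR come after a rescaling of the sums (TMM), so they can differ from the ratios of the levels printed beside them. SLC9A2 did not pass the edgeR filter on low counts, which left 6 of the 7 genes in each class comparison. SLC16A1, SLC9A3 and ATP1B3 were among the 2000 variable genes from which the cell clusters were built, so their class differences are not independent of the clusters. Classes set instead by a marker rule per cell, which uses none of the 7 genes, gave 4 higher and 1 lower against fibroblasts, 5 higher and 0 lower against endothelial cells and 4 higher and 1 lower against immune cells. Under that rule 41%, 43.3% and 47.4% of all tested genes passed in either direction.

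**Figure D1:**
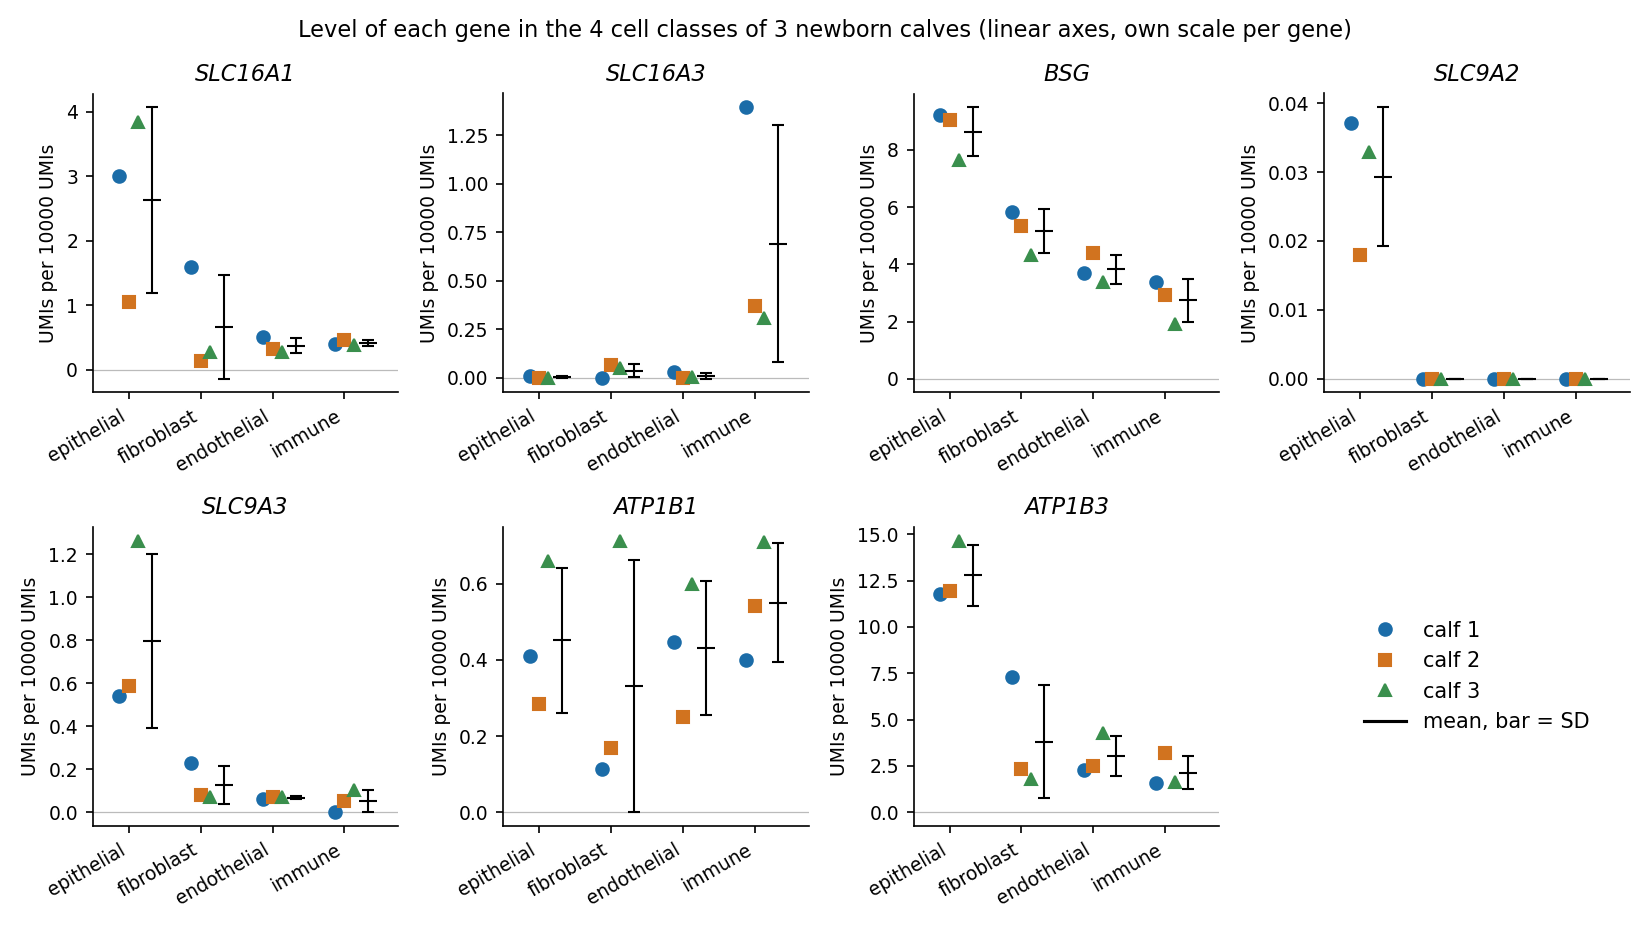
Level of each of the 7 genes (vertical axis, UMIs per 10000 UMIs, linear, own scale per gene) in the 4 cell classes (horizontal axis), with a point per calf and the mean with its SD (n = 3 calves). SLC9A2 was at 0 outside the epithelial cells, SLC16A3 was highest in immune cells in all 3 calves, and ATP1B1 overlapped across the 4 classes.

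Against fibroblasts, 4 of the 6 tested genes were higher in epithelial cells, where 18.1% of all tested genes were, and 1 was lower, where 19.4% of all tested genes were. Against endothelial cells, 4 of 6 were higher (22.5% of all tested genes) and 0 were lower (24.8% of all tested genes). Among the genes of this last comparison, edgeR also gave 0 lower at an unadjusted p under 0.05, since the 4 genes at that limit were the 4 higher ones, and DESeq2 passed 4 as well. The shares of all tested genes at these other limits are not given here. Against immune cells, 4 of 6 were higher (24.9% of all tested genes) and 1 was lower (23.2% of all tested genes). The 4 higher genes were SLC16A1, SLC9A3, ATP1B3 and BSG in each of the 3 comparisons. The median log2 difference of the 6 genes was 1.81, 1.97 and 2.38 against fibroblasts, endothelial and immune cells, beside medians of 0.04, -0.02 and 0.10 over all tested genes.

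SLC16A1, the monocarboxylate transporter that also carries lactate and ketone bodies, was at 3.01, 1.05 and 3.85 UMIs per 10000 in the epithelial cells of calves 1, 2 and 3 (2.63 ± 1.44, SD, n = 3). Calf 2 stood low, with calf 3 at 3.68 times its level. Fibroblasts held 1.60, 0.142 and 0.271, endothelial cells 0.506, 0.332 and 0.280, and immune cells 0.399, 0.468 and 0.390. Within each calf the epithelial level was the highest, but the fibroblasts of calf 1 lay above the epithelial cells of calf 2. The log2 difference from epithelial cells was 3.20 ± 0.46 (SE) against fibroblasts (adjusted p = 1.97e-05, edgeR, higher in 3 of 3 calves), 3.07 ± 0.40 against endothelial cells (adjusted p = 4.05e-06, edgeR) and 2.70 ± 0.45 against immune cells (adjusted p = 7.13e-05, edgeR). In endothelial cells SLC16A1 stood at 16.8%, 31.8% and 7.29% of the same calf's epithelial level, above the range of the 3 keratins there. In fibroblasts it stood at 53.1%, 13.6% and 7.04%, which was below the keratins of the same calf in calf 1, above them in calf 2 and within them in calf 3.

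SLC16A3, the transporter known for lactate export from glycolytic cells, had a different pattern. Immune cells held 1.40, 0.370 and 0.311 UMIs per 10000 in calves 1, 2 and 3, from 7, 15 and 111 UMIs. Epithelial cells held 0.00831, 0.000753 and 0.00131, from 42, 5 and 9 UMIs in all. The immune level was above the epithelial one in 3 of 3 calves, and the log2 difference of epithelial minus immune cells was -7.53 ± 0.53 (SE, adjusted p = 2.38e-09, edgeR). Fibroblasts held 0 UMIs in calf 1, where a count of 0 allows up to 0.343 UMIs per 10000, and 0.0645 and 0.0502 in calves 2 and 3, from 5 UMIs each. The log2 difference from fibroblasts was -4.57 ± 0.81 (adjusted p = 0.000186, edgeR), with the epithelial level lower in the 2 calves that gave fibroblast UMIs. Against endothelial cells, with 1, 0 and 2 UMIs, it was -1.16 ± 1.08 (adjusted p = 0.407, edgeR), and the direction could not be told at this depth.

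Among the immune clusters, SLC16A3 lay with the cells whose leading genes included BOLA-DRA and CD74, which serve antigen presentation, and FCER1A. Those cells held 1.56, 0.482 and 0.352 UMIs per 10000 in calves 1, 2 and 3. The cells led by CD52, IL7R and CD3E, the last a T-cell receptor component, held 0, 0.0867 and 0.172, from 0, 1 and 14 UMIs. ATP1B1 ran the other way in calves 2 and 3, with 1.39 and 1.201 in the CD3E cluster against 0.207 and 0.563 in the other (calf 1 gave 3 and 7 cells). These cluster values are a description, with no test.

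BSG was at 9.21, 9.06 and 7.65 UMIs per 10000 in epithelial cells (8.64 ± 0.859, SD, n = 3), with a spread of 1.204 times between the lowest and the highest calf, the smallest of the 7 genes. It was at 5.82, 5.34 and 4.34 in fibroblasts, 3.69, 4.39 and 3.39 in endothelial cells and 3.39, 2.93 and 1.92 in immune cells. The epithelial values lay above every value of the other classes. The log2 difference was 1.19 ± 0.20 (SE) against fibroblasts (adjusted p = 0.000125, edgeR), 1.53 ± 0.20 against endothelial cells (adjusted p = 4.12e-06, edgeR) and 2.06 ± 0.21 against immune cells (adjusted p = 3.76e-07, edgeR). By level, epithelial cells of calves 1, 2 and 3 held 1.58, 1.69 and 1.76 times the BSG of fibroblasts. They held 2.50, 2.06 and 2.26 times that of endothelial cells, and both sets of ratios are smaller than the log2 differences give. Outside the epithelium BSG still reached 25.1% to 63.2% of the same calf's epithelial level. In calves 2 and 3 this was above all 3 keratins in each of the 3 classes.

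SLC9A2, an apical exchanger of several epithelia, was counted in epithelial cells alone, and rarely. Epithelial cells held 188, 119 and 225 UMIs, which is 0.0372, 0.0179 and 0.0329 per 10000 (0.0293 ± 0.0101, SD, n = 3). In the other classes no UMI was counted in any calf. A count of 0 allows a share of up to 0.388% of the 773 fibroblasts, 0.231% of the 1297 endothelial cells and 0.385% of the 779 immune cells with a UMI, beside 2.28% of epithelial cells, which were deeper. Among cells thinned to 2000 UMIs the limits are 0.732%, 0.258% and 0.432%, beside 0.406% of epithelial cells. These limits pool the cells of all calves, so they treat cells as replicates, while the epithelial shares are means over calves. Within calves 1, 2 and 3, the exact upper limits for thinned endothelial cells were 5.44%, 0.753% and 0.606%. The epithelial shares of 0.517%, 0.257% and 0.444% were below them in each calf. At equal depth the shares therefore do not separate epithelial from endothelial cells. Against a floor of 3 counts per library, the epithelial level of calf 3 was at least 3.83-fold higher than that of its endothelial cells and at least 3.91-fold higher than that of its immune cells. In calf 2 it was at least 1.44-fold higher than in endothelial cells, and in calf 3 at least 1.09-fold higher than in fibroblasts. In the remaining calf and class pairs the floor was above the epithelial level and gave no bound.

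SLC9A3, the exchanger best known for sodium absorption in gut and kidney, was at 0.538, 0.586 and 1.26 UMIs per 10000 in epithelial cells (0.796 ± 0.406, SD, n = 3). Calf 3 was the high one, at 2.35 times calf 1. Fibroblasts held 0.228, 0.0775 and 0.0703, from 2, 6 and 7 UMIs, endothelial cells 0.0595, 0.0706 and 0.0715, and immune cells 0, 0.0493 and 0.104. All epithelial values were above all others. The log2 difference was 3.79 ± 0.38 (SE) against fibroblasts (adjusted p = 2.56e-07, edgeR), 3.96 ± 0.31 against endothelial cells (adjusted p = 6.55e-09, edgeR) and 3.66 ± 0.36 against immune cells (adjusted p = 1.81e-07, edgeR), in 3 of 3 calves each. In immune cells it stood at 0%, 8.42% and 8.20% of the epithelial level. The calf 2 value lay within the keratins of the same calf (4.18% to 13.7%), and the calf 3 value lay above them (4.19% to 4.41%). In endothelial cells it stood at 11.1%, 12.05% and 5.66%, above the keratins of the same calf in 3 of 3 calves, though from 2 UMIs in calf 1.

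The beta subunits of the sodium pump differed in pattern. ATP1B3 was at 11.8, 11.9 and 14.7 UMIs per 10000 in epithelial cells (12.8 ± 1.63, SD, n = 3), against 7.31, 2.31 and 1.79 in fibroblasts. Endothelial cells held 2.29, 2.51 and 4.26 and immune cells 1.60, 3.18 and 1.64. The epithelial values did not overlap those of any other class, and the high fibroblast value was that of calf 1, whose fibroblasts carried the keratins. The log2 difference was 2.42 ± 0.41 (SE) against fibroblasts (adjusted p = 0.000131, edgeR), 2.41 ± 0.39 against endothelial cells (adjusted p = 5.33e-05, edgeR) and 2.82 ± 0.42 against immune cells (adjusted p = 2.33e-05, edgeR).

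ATP1B1 was at 0.409, 0.285 and 0.659 UMIs per 10000 in epithelial cells (0.451 ± 0.190, SD, n = 3). Fibroblasts held 0.114, 0.168 and 0.713, endothelial cells 0.447, 0.249 and 0.598, and immune cells 0.399, 0.542 and 0.709. The classes overlapped, and calf 3 was highest in each of them. The log2 difference from epithelial cells was 0.66 ± 0.29 (SE) against fibroblasts (adjusted p = 0.0891, edgeR), 0.49 ± 0.25 against endothelial cells (adjusted p = 0.124, edgeR) and -0.07 ± 0.29 against immune cells (adjusted p = 0.877, edgeR). These p-values do not show that the classes were alike. By level, epithelial cells of calves 1, 2 and 3 held 0.917, 1.15 and 1.10 times the ATP1B1 of endothelial cells, closer together than the log2 difference of 0.49 gives. Against fibroblasts, and also against endothelial cells, ATP1B1 kept its sign and did not pass in 8 of 10 alternatives. In the remaining ones it passed the threshold. Examples are the fit against fibroblasts without calf 3, at a log2 difference of 1.34 (adjusted p = 0.0344, edgeR), and that against endothelial cells with the marker rule, at 1.02 (adjusted p = 0.0143, edgeR).

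Shares of cells with a UMI were taken after cells were thinned at random to 2000 UMIs and shallower cells were left out, since median depths were 6670 to 10293.5 UMIs in epithelial cells, 1928 to 2653 in fibroblasts, 3607 to 4390 in endothelial cells and 4832 to 5600 in immune cells. This kept 4451, 8561 and 7664 epithelial cells of calves 1, 2 and 3 but 17 of 23, 158 of 341 and 235 of 409 fibroblasts, so fibroblast shares describe the deeper cells of the class. After thinning, 32.7% ± 14.6 (SD, n = 3) of epithelial cells had an SLC16A1 UMI, against 65.4% before, and 7.08% ± 3.06 of endothelial cells. For SLC9A3 the thinned share was 14.6% ± 7.25 of epithelial and 1.53% ± 0.108 of endothelial cells. For ATP1B3 the thinned share was 88.6% ± 3.36 of epithelial cells, and the other classes averaged 34.3% to 39.8%. The contrast was smaller for BSG, found in 73.3% ± 5.24 of epithelial cells and 47.5% to 63.1% of the others. SLC16A3 was found in 9.61% ± 4.43 of immune cells and 0.0737% ± 0.0751 of epithelial cells. ATP1B1 was found in 9.40% ± 3.67 of epithelial and 8.94% ± 7.75 of immune cells, and SLC9A2 in 0.406% ± 0.134 of epithelial cells.

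SLC16A1 and BSG were also set side by side cell by cell, because the protein of the one depends on the other. Of thinned epithelial cells with an SLC16A1 UMI, 81.2%, 82.9% and 74.0% in calves 1, 2 and 3 also had a BSG UMI, against 75.2%, 73.3% and 62.9% of the rest. The share was higher in 3 of 3 calves. For the pump, ATP1B3 was found in 86.7%, 85.7% and 91.4% of cells with an ATP1B1 UMI and in 87.2%, 86.3% and 92.6% of the rest. SLC9A3 was found in 30.4%, 40.9% and 14.7% of the 23, 22 and 34 cells with an SLC9A2 UMI and in 10.9%, 9.80% and 23.0% of the rest, so calf 3 ran against calves 1 and 2. Cells of 1 calf share a library, so no test was made.

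The epithelium was then read from its basal layer, where cells divide, to the spinous layer, where they stratify. Epithelial cells of each calf were ranked by the mean log2 level of 7 spinous genes minus that of 6 basal genes, none of them among the 7 transport genes, and divided into 5 equal groups, from group 1 (basal end) to group 5 (spinous end). The summed level of the basal list fell from 247.9 to 133.1 UMIs per 10000 and that of the spinous list rose from 4.94 to 104.0, by construction. The spinous end was unequal between calves. Cells with at least 2 KRTDAP UMIs after thinning, KRTDAP being a differentiation gene of spinous keratinocytes, numbered 179, 248 and 13 in group 5 of calves 1, 2 and 3. Group 5 had 863, 1660 and 1504 cells deep enough for thinning, so most of its cells did not reach that limit. The spinous end is therefore a rank within the calf, not a population of spinous cells alone. The share of cycling cells also differed, from 10.5%, 4.83% and 2.22% in group 1 to 25.8%, 2.53% and 12.1% in group 5. The part of the cycling cells in the results below was measured by a fit without them, whose log2 differences for SLC9A2 and SLC9A3 are given beside theirs.

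Of the 6 genes tested between group 5 and group 1, 1 was higher at the spinous end, where 9.43% of all tested genes were, and 0 were lower, where 10.8% of all tested genes were. By edgeR at an unadjusted p under 0.05 there were 2, both higher (SLC9A2 and SLC9A3), and DESeq2 passed the same number, 2. The 9.43% and 10.8% belong to the adjusted edgeR test, and shares of all genes at these other limits are not given here. SLC16A3 did not pass the filter.

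SLC9A2 was the gene that rose. Its level went from 0.0113, 0.0142 and 0.0161 UMIs per 10000 in group 1 to 0.114, 0.0524 and 0.0902 in group 5 of calves 1, 2 and 3, from 10, 21 and 20 UMIs to 133, 73 and 138. The 3 group 5 values lay above the 3 group 1 values, by 10.0, 3.70 and 5.59 times within the calf. Epithelial cells with at least 2 KRTDAP UMIs after thinning held 76, 40 and 1 SLC9A2 UMIs in calves 1, 2 and 3. In calf 3 the rise therefore lay almost wholly in cells outside that gate. The rise was at the last step, since group 4 held 0.0139 ± 0.0114 (SD, n = 3) and group 5 held 0.0854 ± 0.0308. The log2 difference was 2.56 ± 0.38 (SE, adjusted p = 0.000384, edgeR), and 2.56 without the cycling cells (adjusted p = 0.000245, edgeR). With S100A8 and S100A9 left out of the spinous list it was 1.88 (adjusted p = 0.00398, edgeR). Between the ends of 20 groups, a division added after the values were seen, it was 4.18 (adjusted p = 6.85e-09, edgeR). As a linear trend it was 0.72 per step from one group to the next (adjusted p = 0.00946, edgeR). Without the calf as a block it was 2.64 with adjusted p = 0.0669, and then no gene of the 7 passed.

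**Figure D2:**
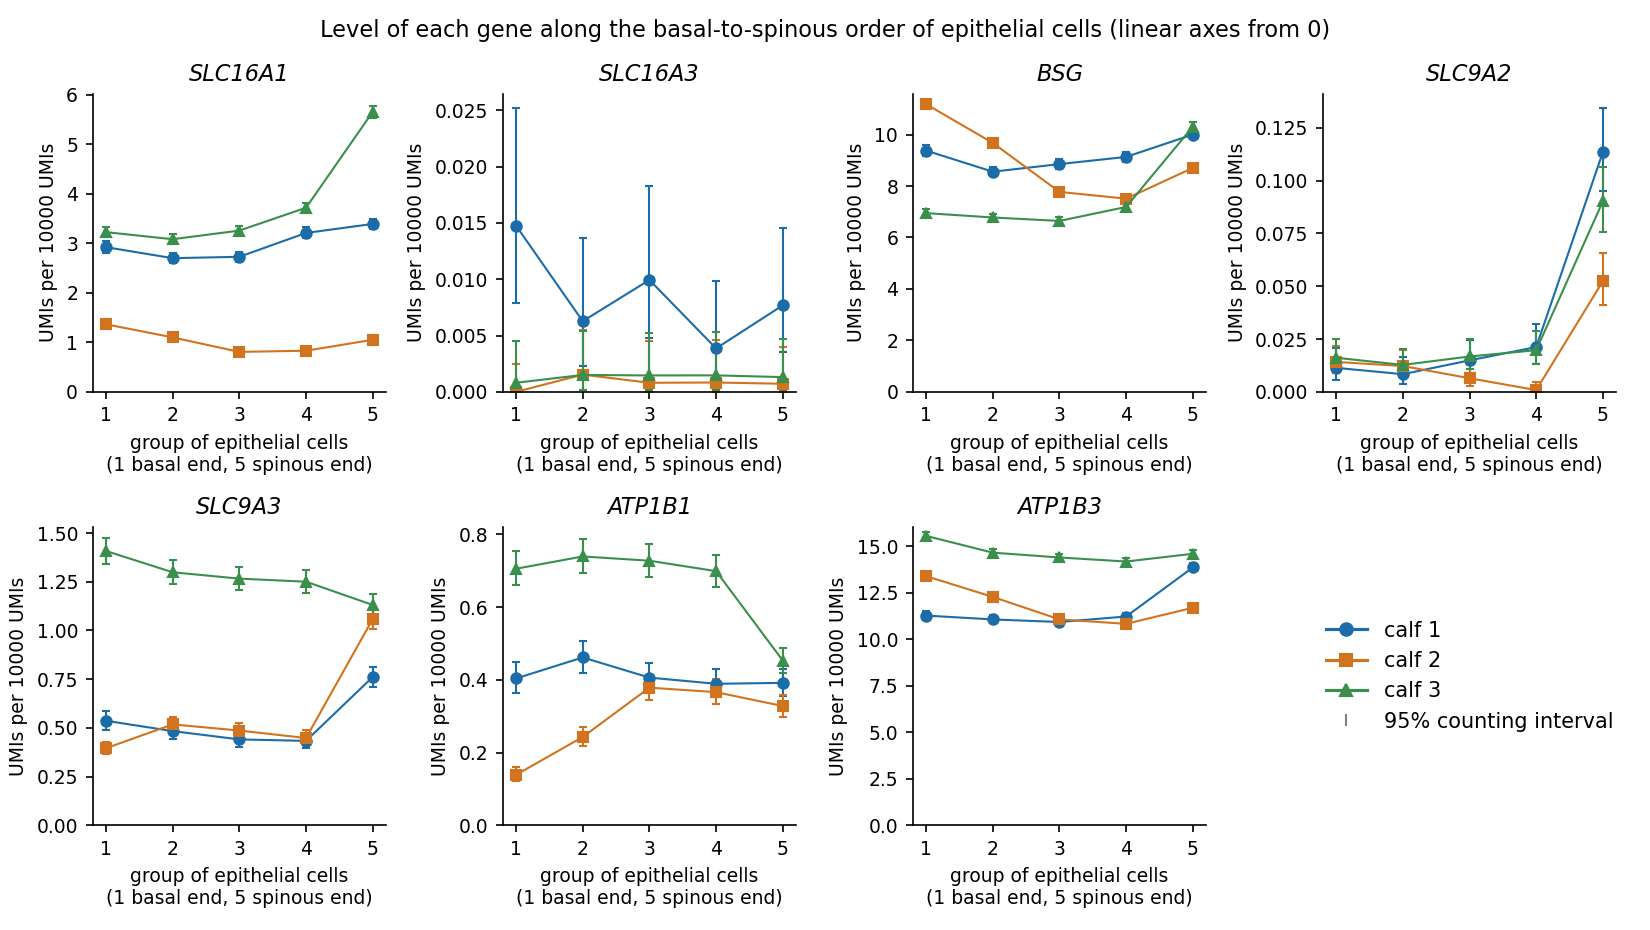
Level of each gene (vertical axis, UMIs per 10000 UMIs, linear from 0) in the 5 equal groups of epithelial cells from the basal end (1) to the spinous end (5), with a line per calf and 95% counting intervals. SLC9A2 stayed at or below 0.0212 UMIs per 10000 in groups 1 to 4 of each calf and was at 0.0524 to 0.114 in group 5, while the other genes with enough UMIs differed in direction between calves.

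SLC9A3 went from 0.537, 0.396 and 1.41 UMIs per 10000 in group 1 to 0.761, 1.06 and 1.13 in group 5. It was higher at the spinous end in calves 1 and 2 and lower in calf 3, whose group 5 held 13 KRTDAP cells. The log2 difference was 0.63 ± 0.22 (SE) and did not pass (adjusted p = 0.0662, edgeR). Without the cycling cells it was 0.70 (adjusted p = 0.0291, edgeR), and without calf 3 it was 1.04 (adjusted p = 0.00622, edgeR). With the same sign it did not pass at 0.16 without calf 2 (adjusted p = 0.558, edgeR), 0.45 without the calf as a block (adjusted p = 0.966, edgeR) and 0.12 per step as a linear trend (adjusted p = 0.191, edgeR). Between the outermost of 20 equal groups, a division chosen after these values were seen, SLC9A3 was at 0.575, 0.352 and 1.67 at the basal end and 1.48, 1.98 and 1.23 at the spinous end. That log2 difference was 1.54 (adjusted p = 1.14e-06, edgeR), again with calf 3 the other way.

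SLC16A1 went from 2.92, 1.37 and 3.23 UMIs per 10000 in group 1 to 3.39, 1.05 and 5.66 in group 5. Calf 3 was 1.75 times higher at the spinous end and calf 2 was at 0.770 times its basal level. The log2 difference of 0.28 ± 0.18 (SE) did not pass (adjusted p = 0.305, edgeR), but it was 0.60 without calf 2 (adjusted p = 0.00192, edgeR). BSG went the same ways in each calf, from 9.38, 11.2 and 6.95 to 10.0, 8.70 and 10.3, with a log2 difference of 0.16 ± 0.13 (adjusted p = 0.449, edgeR). Without calf 2 BSG was at 0.41 (adjusted p = 0.00484, edgeR).

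ATP1B1 went from 0.404, 0.139 and 0.706 UMIs per 10000 to 0.392, 0.328 and 0.453. Calf 2 was 2.36 times higher at the spinous end and calf 3 was at 0.642 times its basal level, so ATP1B1 ran against SLC16A1 and BSG in both calves. ATP1B3 changed least, from 11.3, 13.4 and 15.6 to 13.9, 11.7 and 14.6, within 0.873 to 1.23 times in each calf. Their log2 differences were 0.16 ± 0.26 (SE, adjusted p = 0.711, edgeR) and 0.06 ± 0.08 (adjusted p = 0.647, edgeR). SLC16A3 held between 0 and 13 UMIs in any group of any calf, and no order could be read from it.

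Shares along the order were of the same kind. The thinned share of cells with an SLC9A2 UMI was 0.104% ± 0.0985 (SD, n = 3) in group 1 and 1.33% ± 0.554 in group 5. That of SLC9A3 was 15.0% ± 9.03 and 16.5% ± 4.28, and that of SLC16A1 was 35.3% ± 12.02 and 36.2% ± 17.8, both within their spread between calves. Median depths were 7529.5 to 9062 UMIs in group 1 and 6529.5 to 13010 in group 5. Between 2.44% and 6.07% of a calf's epithelial cells lay within 0.05 score units of the limit of group 1 or group 5.

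In the cells with at least 2 KRTDAP UMIs (182, 254 and 13 in calves 1, 2 and 3), SLC9A2 was at 0.279, 0.121 and 0.0668 UMIs per 10000, against 0.0235, 0.0123 and 0.0327 in the rest, and SLC9A3 at 1.38, 2.30 and 2.07 against 0.487, 0.492 and 1.26. The calf 3 value of SLC9A2 was 1 UMI. SLC16A1 was lower there in 3 of 3 calves, at 1.83, 0.581 and 2.07 against 3.08, 1.07 and 3.85. No test was made on these cells.

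Cycling epithelial cells, those with at least 2 UMIs of MKI67, TOP2A, CENPF, UBE2C and CENPA after thinning, numbered 680, 208 and 387, against 3771, 8353 and 7277 others. Of the 6 genes tested, 1 was higher in cycling cells, where 13.8% of all tested genes were, and 2 were lower, where 14.8% of all tested genes were. Median depths before thinning were 13454.5, 10761 and 12676 UMIs in cycling and 10155, 6696 and 7875 in other cells, and the part of depth was not tested. The spinous list stood at 18.4 UMIs per 10000 in cycling and 29.8 in other cells.

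SLC16A1 was the gene that was higher. It was at 4.00, 2.14 and 7.46 UMIs per 10000 in cycling cells and 2.80, 1.00 and 3.58 in the others, which is 1.43, 2.14 and 2.08 times within the calf. Since calf 2 was low in both states the groups overlapped. The log2 difference was 0.70 ± 0.13 (SE, adjusted p = 0.00688, edgeR). Without calf 3 it was 0.59 and did not pass (adjusted p = 0.0611, edgeR). Among the cells of groups 1 to 4 alone, a comparison added after the values were seen, it was 0.61 (adjusted p = 0.00836, edgeR).

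SLC9A3 and ATP1B1 were lower in cycling cells in 3 of 3 calves. SLC9A3 was at 0.291, 0.282 and 0.726 UMIs per 10000 against 0.588, 0.594 and 1.296, with a log2 difference of -1.15 ± 0.11 (SE, adjusted p = 0.000466, edgeR). ATP1B1 was at 0.301, 0.118 and 0.253 against 0.434, 0.292 and 0.689, with a log2 difference of -1.22 ± 0.18 (adjusted p = 0.00240, edgeR). Within the calf these were 0.474 to 0.560 times for SLC9A3 and 0.368 to 0.694 times for ATP1B1. Among the cells of groups 1 to 4 alone, again a comparison added later, the log2 differences were -0.90 (adjusted p = 0.00141, edgeR) and -1.26 (adjusted p = 0.000492, edgeR). All 3 calls over the whole epithelium rested on the calf as a block, and without it none of the 6 passed, while 2 were at an unadjusted p under 0.05.

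**Figure D3:**
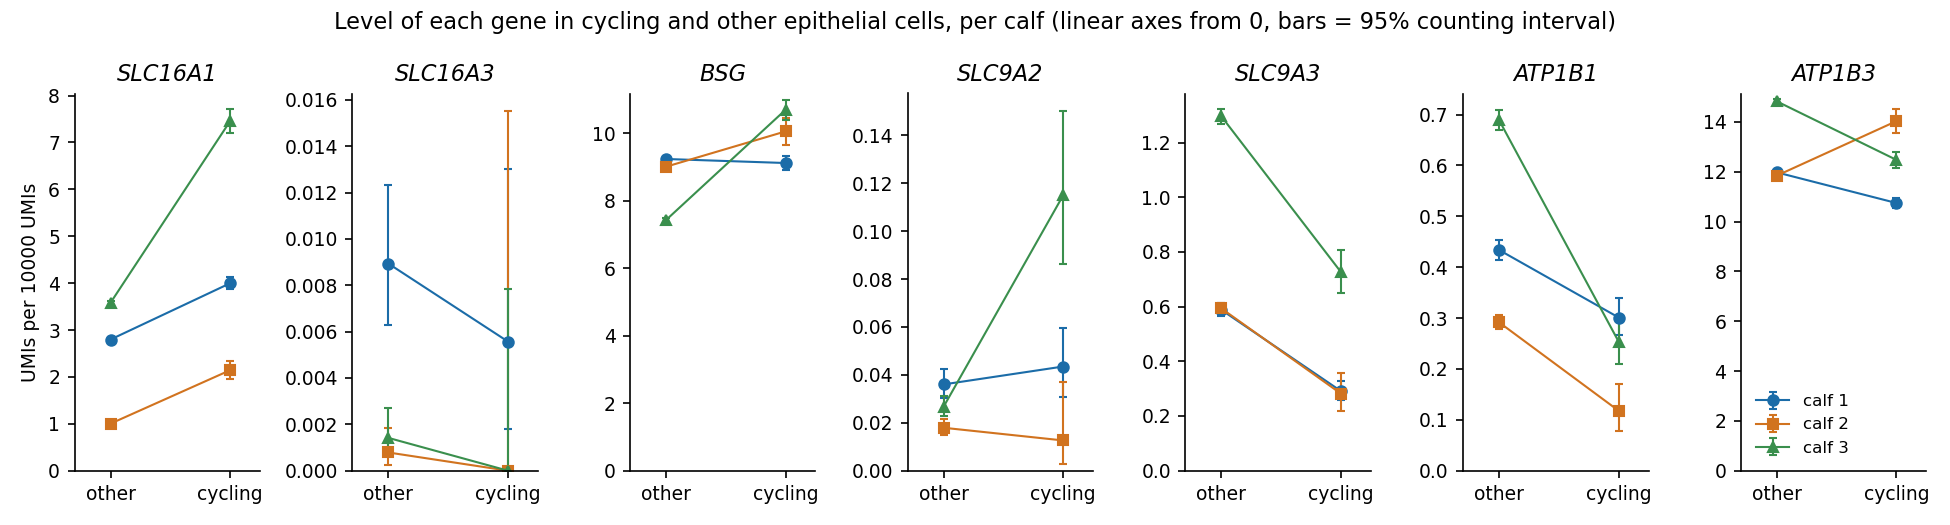
Level of each gene (vertical axis, UMIs per 10000 UMIs, linear from 0) in cycling and other epithelial cells, with a line per calf and 95% counting intervals. SLC16A1 was higher and SLC9A3 and ATP1B1 were lower in the cycling cells of all 3 calves, while the lines of BSG, SLC9A2 and ATP1B3 differed in direction between calves.

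BSG was at 9.12, 10.1 and 10.7 UMIs per 10000 in cycling cells and 9.24, 9.01 and 7.43 in the others (log2 difference 0.04 ± 0.12, SE, adjusted p = 0.867, edgeR). ATP1B3 was at 10.7, 14.03 and 12.5 against 11.97, 11.8 and 14.8, a log2 difference of -0.24 ± 0.10 that did not pass (adjusted p = 0.107, edgeR). SLC9A2 held 39, 3 and 54 UMIs in cycling cells and its log2 difference was 0.83 ± 0.43 (adjusted p = 0.190, edgeR). Calf 3 decided that value, at 4.30 times, and without it the log2 difference was -0.10. Compared within groups 1 to 4, SLC9A2 was higher in cycling cells by 1.37 (adjusted p = 0.0202, edgeR). That comparison was chosen after the values were seen.

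**Figure D4:**
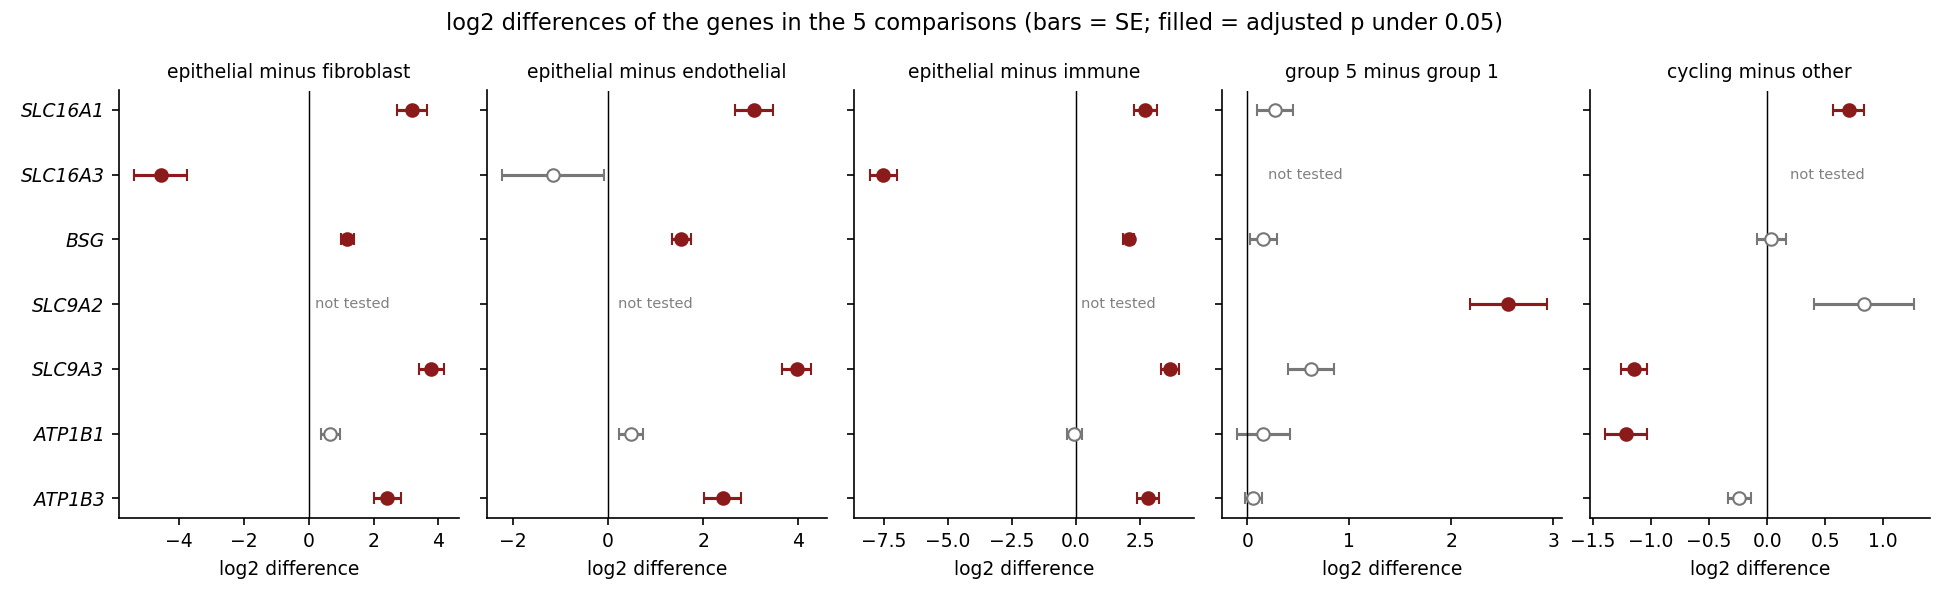
log2 difference of each gene (horizontal axis, bars are SE) in the 5 comparisons, filled where the adjusted p of edgeR was under 0.05 and marked where a gene was not tested, with axes of different length. SLC16A1, BSG, SLC9A3 and ATP1B3 passed in all 3 class comparisons, SLC9A2 alone passed between the ends of the epithelium, and SLC16A1, SLC9A3 and ATP1B1 passed between cycling and other cells.

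The 2 large epithelial clusters are given as a description, because clusters are built from gene levels. The cluster that holds KRTDAP, S100A8, TOP2A and CENPF among its leading genes had 28.3% of the epithelial cells and 34.7% of their UMIs. It held 477 of the 532 SLC9A2 UMIs (89.7%), at 93.1%, 92.4% and 85.3% in calves 1, 2 and 3 beside 46.9%, 31.2% and 29.0% of all epithelial UMIs of the calf. SLC9A3 had 48.1%, 44.2% and 21.8% of its UMIs there, above the share of all UMIs in calves 1 and 2 and below it in calf 3. Within each calf SLC16A1 was 1.52, 2.66 and 2.94 times and BSG 1.26, 1.66 and 2.20 times as high there as in the other large cluster, whose leading genes include CCN2, ATF3 and FOS. ATP1B1 was at 0.727, 0.479 and 0.327 times.

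Over the 15 sums of calf and group, with each gene centred within its calf, Pearson's r of log2 counts scaled to the library total was 0.97 between SLC16A1 and BSG, -0.86 between SLC16A1 and ATP1B1 and -0.89 between BSG and ATP1B1. The sums of a calf share a library and an order of cells, so these values are a description. By the same measure, among 10408 genes with enough counts, the genes most like SLC16A1 were ACADVL (r = 0.976), a mitochondrial fatty acid oxidation enzyme, PSMB4 (0.974) and SNRPB (0.973). Those most like BSG were ACAA2 (0.972), also a fatty acid oxidation enzyme, SLC16A1 (0.971) and SLC25A3 (0.968), the mitochondrial phosphate carrier. For SLC9A2 they were PPARG (0.965), PLD1 (0.965) and CTSZ (0.961), and for SLC9A3 they were SLC44A2 (0.975), ARHGAP32 (0.933) and FGD2 (0.932). For ATP1B1 they were SELENOP (0.971), SAT1 (0.963) and SUCO (0.947), and for ATP1B3, with the lowest values, RAB13 (0.909), HIST3H2A (0.908) and YIPF6 (0.898). SLC16A3 had too few counts for this measure.

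Other genes of the same pathway were read from a list of 45 transporters and partners, of which 43 had a row. Against fibroblasts, 10 of the 22 tested were higher in epithelial cells (18.1% of all tested genes) and 8 were lower (19.4%), with a median log2 difference of 0.85. Against endothelial cells 9 of 22 were higher and 4 lower (median 0.89), beside 22.5% and 24.8% of all tested genes. Against immune cells 6 of 22 were higher and 7 lower (median 0.10), beside 24.9% and 23.2%. EMB (embigin), the other known escort of monocarboxylate transporters, was higher by 3.60 and 4.66 against fibroblasts and endothelial cells (adjusted p = 0.00143 and 8.28e-06, edgeR), and its log2 difference from immune cells was 0.24 (adjusted p = 0.719, edgeR).

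Among other genes of the SLC16 family, SLC16A9 was higher in epithelial cells by 3.68, 6.12 and 3.48 (adjusted p = 5.23e-05, 7.20e-08 and 3.06e-05, edgeR) against fibroblasts, endothelial and immune cells. SLC16A7 (MCT2) was higher by 1.06, 4.71 and 4.86 in the same order (adjusted p = 0.0185, 2.63e-08 and 5.63e-07, edgeR). Against endothelial cells, SLC16A13 was lower by a log2 difference of -3.58 and the prostaglandin carrier SLCO2A1 by -3.72 (adjusted p = 1.59e-08 and 1.42e-08, edgeR), while SLCO2A1 was 3.09 higher in epithelial than in immune cells (adjusted p = 0.00475, edgeR). SCNN1B, the beta subunit of the epithelial sodium channel, was higher by 3.84, 4.54 and 4.76 in the 3 comparisons (adjusted p = 0.000590, 4.21e-06 and 6.72e-05, edgeR).

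Other genes of the list were lower in epithelial cells in at least 1 comparison. FXYD1, a small pump regulator of muscle, differed by -5.60 from fibroblasts (adjusted p = 1.78e-06, edgeR), and FXYD5, another regulator, by -4.72, -6.13 and -6.38 from fibroblasts, endothelial and immune cells (adjusted p = 6.77e-09, 1.28e-10 and 1.75e-10, edgeR). The bicarbonate exchanger SLC4A3 differed by -5.13 from fibroblasts and -3.91 from immune cells (adjusted p = 1.88e-05 and 0.000716, edgeR). SLC9A9, an endosomal exchanger, differed by -2.95 from fibroblasts, and SLC9A7 by -5.53 from immune cells (adjusted p = 3.63e-05 and 2.43e-05, edgeR). SLC9A3R2, a scaffold protein of SLC9A3, differed by -4.83 from endothelial cells and -1.59 from fibroblasts (adjusted p = 1.95e-09 and 0.000826, edgeR) and was 2.23 higher in epithelial than in immune cells (adjusted p = 0.000433, edgeR).

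Along the epithelium 5 of 26 tested genes of the list were higher at the spinous end and 6 were lower, with a median log2 difference of -0.05, beside 9.43% and 10.8% of all tested genes. SLC4A4, a sodium bicarbonate cotransporter, was higher by 2.03 and SCNN1A, the alpha subunit of the sodium channel, by 1.12 (adjusted p = 0.00383 and 0.0309, edgeR). SLC9A3R1, the other scaffold of SLC9A3, was higher by 1.01 (adjusted p = 1.75e-05, edgeR), EMB by 0.96 (adjusted p = 0.00781, edgeR) and CHP1, an exchanger cofactor, by 0.72 (adjusted p = 0.000236, edgeR). The anion exchanger SLC26A6 differed by -1.04, FXYD5 by -0.94 and FXYD6 by -0.91 (adjusted p = 0.00595, 0.0214 and 0.00948, edgeR).

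In cycling cells 4 of 27 tested genes of the list were higher and 3 lower, with a median log2 difference of 0.03. These counts are near the 13.8% and 14.8% of all tested genes. The sodium channel subunits SCNN1B and SCNN1G were lower, with log2 differences of -2.01 and -1.39 (adjusted p = 0.000550 and 0.00699, edgeR), as was SLC9A3R2 at -1.71 (adjusted p = 0.000172, edgeR). SLC16A14 was higher by 2.59, SLC4A4 by 1.06, SLC26A6 by 0.66 and the anion exchanger SLC4A2 by 0.35 (adjusted p = 0.0183, 0.0175, 0.0223 and 0.0488, edgeR). EMB was at a log2 difference of 0.03 (adjusted p = 0.948, edgeR).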

How the data were processed

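Cell Ranger 3.1.0, named in the submitters' processing notes, gave the counts of UMIs per gene and barcode that the authors deposited for each calf, as a matrix of raw counts without normalization. The genome build of the files was ARS-UCD1.2 per the study's methods, and no genome of that build was used here, so no position or sequence is given. Barcodes with 500 to 4000 genes, at most 50000 UMIs and at most 40% of UMIs from 13 named mitochondrial genes were kept. Doublets were removed by a score against simulated doublets, at 0.8% per 1000 barcodes (191, 908 and 879 barcodes). The 2000 most variable genes and 30 components were merged with an implementation of Harmony, and cells were clustered on 20 neighbours with leidenalg 0.10.2 at resolution 0.1. Clusters were named from marker lists. Of the 45 genes of the related list, 43 were found by symbol.

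Summed counts per calf and class, basal-to-spinous group or cycling state (sums of at least 10 cells) were tested with edgeR 4.0.16 in R 4.3.3 (TMM, filterByExpr, quasi-likelihood test, calf as a block because both sums come from the same animal, Benjamini-Hochberg over all genes tested, threshold 0.05), with DESeq2 1.42.0 as an alternative. With 3 calves an exact paired permutation test cannot go below 0.25, so none was run on shares. Standard errors were taken from the F statistic. Intervals are 95% (exact Poisson for levels), and they and the floor of 3 counts cover counting error only. P-values measure the spread of all sums of a fit around the calf and group effects, estimated in part over all genes. They do not measure how a difference varied among the 3 calves, so a gene can pass with a calf going the other way. The code was tested on simulated data, with 1 fixed spread for all genes and the same change in each calf. Changed genes were drawn at random over all levels. With a log2 change of 1 it recovered 19.3% to 46.5% of changed genes and with a change of 2 it recovered 88.8% to 98%, so there a difference of 1 was often missed. These rates are not those of the 7 genes, whose counts and spread differ. Named are the 7 genes in every comparison, up to 8 of the related list with the largest differences past the threshold, EMB, and per gene the 3 with the highest correlation. Some items of the list are not reported here. The 7 genes, the lists and the tests were chosen with earlier results of these data known. Alternatives tried were DESeq2, its size factors, no filter, no block, leaving out each calf, keeping doublets, a marker rule for classes, other scores, groups and gates, other thinning depths and a limit of 20% mitochondrial UMIs.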

Additional observations from a re-analysis of the deposited data

Results flagged for a closer look

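Barcodes with more than 4000 detected genes (797, 187 and 637 in calves 1, 2 and 3) were outside every comparison, and 6 of the 7 genes gave more than 3 UMIs in them in each calf. Their mean levels there, in UMIs per 10000 over 3 calves, were 3.78 for SLC16A1, 0.0818 for SLC9A2, 0.824 for SLC9A3, 0.310 for ATP1B1, 12.1 for ATP1B3 and 10.2 for BSG. SLC9A2 stood at 0.0837, 0.0612 and 0.1005, which is 2.25, 3.41 and 3.06 times the epithelial level of the same calf. These barcodes were not divided into classes or tested. With 3 calves per group, no search for a single outlying sample was made.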

How the results depend on the processing

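Against fibroblasts, endothelial and immune cells, the number of the 7 genes past the threshold stayed within 1.5 times of its value under every alternative run, with ranges of 5 to 6, 4 to 4 and 5 to 5 when a calf was left out. The log2 differences of SLC16A1, SLC9A3, ATP1B3 and BSG kept their direction and stayed past the threshold in all 10 alternatives of each class comparison, as did SLC16A3 against fibroblasts and immune cells. Between the ends of the epithelium the count of 1 became 2 with DESeq2, 2 with no filter on low counts, 2 with a spinous list without S100A8 and S100A9, 2 with KRT14 and KRT5 against S100A8 and KRT6A, 2 without cycling cells and 3 with 20 groups (chosen after seeing the data), and it ran from 1 to 3 when a calf was left out. The shares of all genes passed under these alternatives are not given beside the counts. Without the replicate block edgeR passed 0 genes there (1 at an unadjusted p under 0.05) and 0 between cycling and other cells (2 at an unadjusted p under 0.05), where leaving out a calf gave 2 to 3. The numbers of all genes passed without that block fell to 123 and 355, from 2385 and 3500. The cause was not tested. The block is the calf from which both groups of cells come, and it changed no call against the other classes.

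Signs turned only for differences that did not pass. For SLC16A3 against endothelial cells the marker rule gave 4.74. For ATP1B1 against immune cells no filter gave 0.044, the marker rule 0.18 and leaving out a calf -0.38 to 0.050. Between the ends of the epithelium, leaving out a calf gave SLC16A1 -0.024 to 0.60, ATP1B1 -0.29 to 0.61, ATP1B3 -0.088 to 0.18 and BSG -0.070 to 0.41, and the list without S100A8 and S100A9 gave SLC16A1 -0.19 and BSG -0.066, where the 4-gene score gave BSG -0.065. Between cycling and other cells, BSG was at -0.014 with no filter, -0.026 with a gate of 3 UMIs, -0.052 within groups 1 to 4 (added after seeing the data) and -0.14 to 0.16 when a calf was left out, and SLC9A2 at -0.10 to 1.34. Sums of at least 50 cells, also added, gave 5, 4 and 5. The number of genes highest in epithelial cells stayed at 5 by level. Of 210 alternative shares, 56 moved by more than 1 SD, 34 of them with no thinning. SLC16A3 and SLC9A2, with 56 and 532 epithelial UMIs, failed the filter on low counts in some comparisons.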
